A study of Arabidopsis thaliana with 12 samples.

Results

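The genes described here are iqd32 (AT1G19870), which encodes a calmodulin-binding IQ-domain protein, and AT3G44050, which encodes a kinesin motor protein. They are 2 of the 691 genes that the array measured with a probe assigned to that gene alone. They were chosen because the level of iqd32 was lower and that of AT3G44050 higher in ascorbate than in water on these same arrays, so the size and direction of that difference are given as a description, with no test. The arrays measured total RNA of wild-type Arabidopsis thaliana plants of the ecotype Columbia 0, which carried no transgene or mutation according to the labels. In the water group, 6 samples had been in water for 8 h. The 6 samples of the ascorbate group spent 4 h in water, followed by a further 4 h in an ascorbate solution of 25 mM and pH 5.5. Ascorbate, pH, solute load and the change of solution cannot be told apart in this design, because the labels name no control moved to another solution.

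The labels number the samples 1 to 6 in each group and do not say whether these are separate plants, so the errors and p-values describe the spread among these 12 samples, part or all of which may be technical. The labels give no organ, and no gene of the lists of green tissue, root or dividing cell markers had a single-gene probe, so the tissue was not checked. The summed deposited intensity per array ran from 3054 to 3562. Ascorbate arrays 1 and 2 stood apart with median intensities of 0.252 and 0.259, against 0.383 to 0.485 on the other 10 arrays. As these are bulk samples, fewer cells of a type and less RNA per cell cannot be told apart.

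Microtubules are hollow polymers of tubulin that place new cell wall material, separate chromosomes and build the new wall between dividing plant cells. Kinesins are motor proteins that use ATP to move along microtubules or to change how they grow. IQD proteins are plant proteins with a region of calmodulin-binding IQ motifs, and several family members have been found on microtubules. One of them, IQD1, binds calmodulin and a kinesin light chain-related protein, so the family is discussed as a link between calcium signals, microtubules and kinesins.

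For iqd32, the deposited intensity in water samples 1 to 6 was 0.282, 0.399, 0.371, 0.330, 0.433 and 0.397. In ascorbate samples 1 to 6 it was 0.0786, 0.0260, 0.196, 0.258, 0.0914 and 0.122. Every ascorbate value lay below every water value, with ascorbate sample 4 closest to the water group and ascorbate sample 2 lowest. How many of all probes had groups that did not overlap on deposited intensities was not counted. The deposited intensity averaged 0.369 ± 0.054 in water and 0.129 ± 0.085 in ascorbate (SD, n = 6 each). Within a replicate number, the water value was between 1.28 and 15.4 times the ascorbate value, the smallest ratio in number 4 and the largest in number 2. The value of 0.0260 still exceeded the floor of 0.00770 that was set for its array, and iqd32 was above the floor on all 12 arrays.

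For AT3G44050, the deposited intensity in water samples 1 to 6 was 0.361, 0.458, 0.479, 0.441, 0.392 and 0.470. In ascorbate samples 1 to 6 it was 0.709, 0.716, 0.868, 0.974, 0.631 and 0.636. The groups did not overlap: the highest water value, in sample 3, was below the lowest ascorbate value, in sample 5. Mean deposited intensities were 0.434 ± 0.047 in water and 0.756 ± 0.137 in ascorbate (SD, n = 6 each). Within a replicate number the ascorbate value was between 1.35 and 2.21 times the water value, a much narrower range of ratios than for iqd32.

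**Figure D1:**
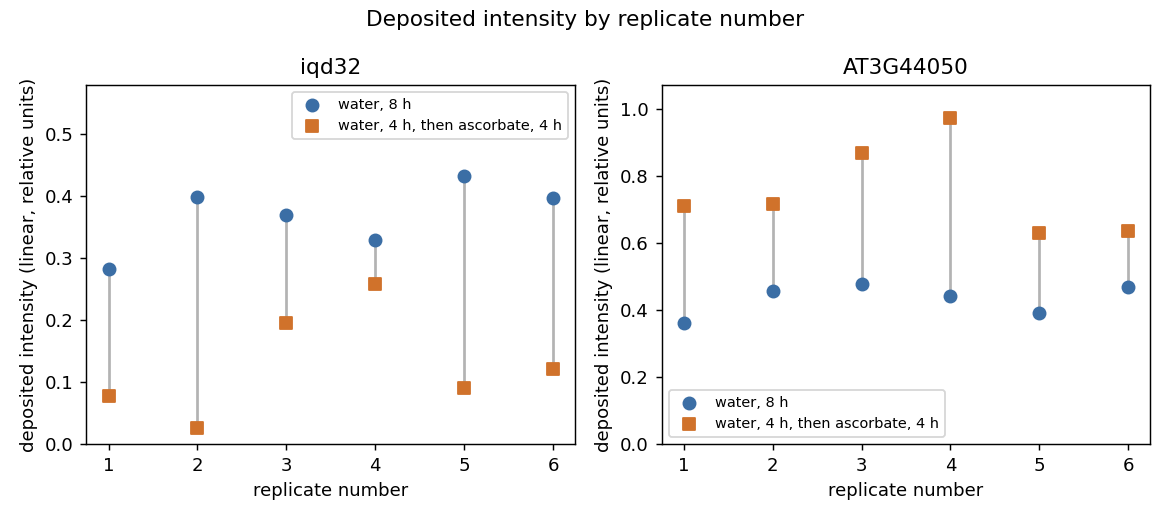
Deposited intensity (linear, relative units) of iqd32 (left) and AT3G44050 (right) by replicate number, with circles for water, squares for ascorbate and a line joining the samples of a number. In all 6 numbers iqd32 was lower and AT3G44050 higher in ascorbate, and the gap for iqd32 was narrowest in number 4, at 0.330 against 0.258.

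Ascorbate arrays 1 and 2 were dimmer at their median than the water arrays of the same numbers, at ratios of 0.536 and 0.546, while the ratio lay between 0.857 and 0.945 in numbers 3 to 6. The arrays were therefore also compared after quantile normalization, which gives every array the same distribution of log2 values. On that scale iqd32 had a level of -1.68 ± 0.23 in water and -3.04 ± 0.90 in ascorbate (SD, n = 6 each). The difference of ascorbate minus water was -1.36 ± 0.36 (SE of the limma fit), equal to a 2.56-fold lower level. With the 25th percentile of each array added before log2 it was -0.55, so the size for this dim probe depends on how low values are treated. The groups now overlapped, because iqd32 stood at -2.13 in water sample 1, under the -1.89 of ascorbate sample 4. The level of AT3G44050 was -1.42 ± 0.27 in water and -0.33 ± 0.32 in ascorbate (SD, n = 6 each). Its difference was 1.09 ± 0.17 (SE of the limma fit), a 2.12-fold higher level, and its groups did not overlap. Across the array 315 of 3266 tested probes (9.64%) had groups that did not overlap on this scale. By limma's adjusted p, 559 of the 3266 probes (17.1%) were called, both genes among them, and nothing is read from this since the genes were chosen on it.

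**Figure D2:**
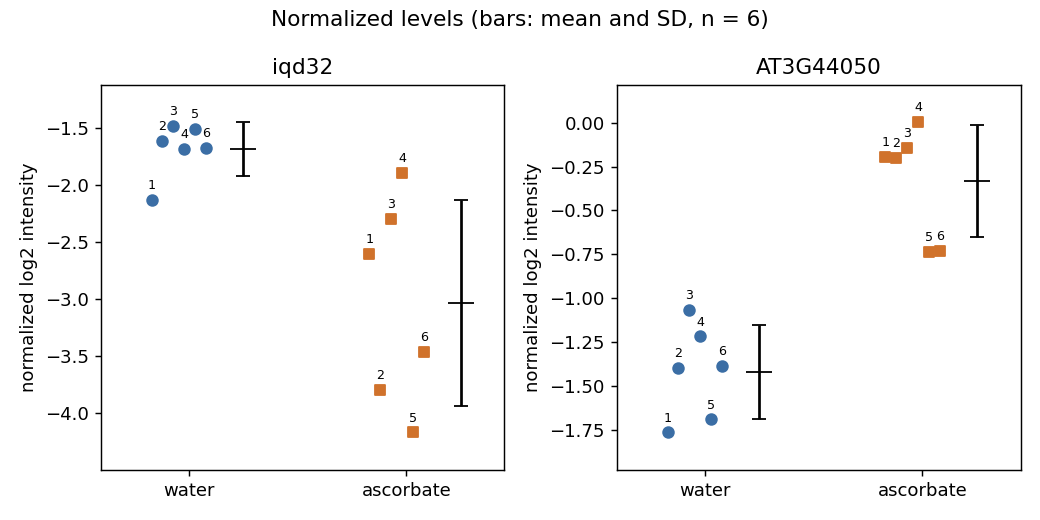
Normalized log2 intensity of iqd32 (left) and AT3G44050 (right) in the water and ascorbate samples, each point marked with its replicate number and bars showing the mean and SD (n = 6). The ascorbate values of iqd32 were spread from -4.17 to -1.89, whereas those of AT3G44050 formed a higher set (samples 1 to 4) and a lower set (samples 5 and 6, at -0.74 and -0.73).

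Taken by replicate number on the normalized scale, iqd32 was lower in ascorbate in all 6 numbers, with log2 differences of -0.47, -2.18, -0.82, -0.21, -2.66 and -1.79 in numbers 1 to 6. The largest differences were in numbers 2, 5 and 6 and the smallest in number 4. AT3G44050 was higher in all 6 numbers, with log2 differences of 1.57, 1.20, 0.92, 1.22, 0.95 and 0.65. For this gene the largest difference was in number 1 and the smallest in number 6. The SD of the 6 differences was 0.996 for iqd32 and 0.313 for AT3G44050.

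The direction was the same on all 3 scales, but the size within a number differed between them. For iqd32 in number 1 the log2 difference was -1.84 as deposited, -0.95 with each array centred on its median and -0.47 after quantile normalization, and in number 2 it was -3.94, -3.07 and -2.18. In numbers 5 and 6 the order was turned, with -2.24 and -1.70 as deposited and -2.66 and -1.79 after quantile normalization. Numbers 1 and 2 together thus showed the largest mean difference of iqd32 as deposited, at -2.89 against -0.64 in numbers 3 and 4 and -1.97 in 5 and 6, while after normalization numbers 5 and 6 did, at -2.23 against -1.33 and -0.51. Numbers 3 and 4 showed the smallest difference of iqd32 on either scale. For AT3G44050 the means of numbers 1 and 2, 3 and 4, and 5 and 6 were 0.81, 1.0 and 0.56 as deposited and 1.38, 1.07 and 0.80 after normalization. The median log2 difference of all tested probes was 0.001 on the quantile normalized scale, against -0.35 for the deposited values and 0.04 for centred arrays. Relative to that median, iqd32 differed by -1.36 after normalization and by -1.49 on each of the other scales, and AT3G44050 by 1.08 and 1.14. Deposited and centred values must give the same figure here, because centring only shifts each array.

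**Figure D3:**
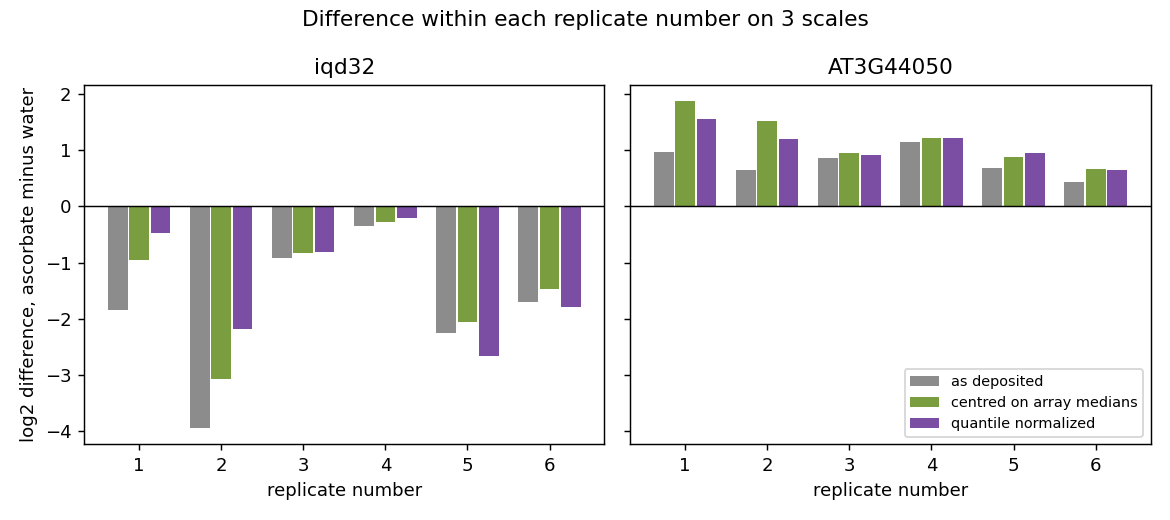
Log2 difference of ascorbate minus water within each replicate number for iqd32 (left) and AT3G44050 (right), as deposited (grey), centred on array medians (green) and quantile normalized (purple). All bars of iqd32 are below 0 and all bars of AT3G44050 above 0, and the scales part most in numbers 1 and 2.

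The genes also differed in their relative spread within groups. On the normalized scale the SD of iqd32 in ascorbate was 3.86 times its SD in water. Over the 2670 probes above the floor on all arrays the median of this ratio was 1.24, and 5.39% of them had a ratio at least as high as iqd32. On log2 of the deposited values, without normalization, the ratio of iqd32 was 5.21, with 8.24% of probes at or above it. For AT3G44050 the ratio was 1.19 after normalization and 1.55 without it. On the linear deposited intensities iqd32 still spread more in ascorbate, but the order of the genes was turned. The ratio was 1.55 for iqd32 and 2.91 for AT3G44050, beside a median of 1.38. There 42.5% of the probes had a ratio at least as high as iqd32. A ratio of iqd32 above that of most probes was thus seen for relative, not for absolute, intensity. The water values of iqd32 lay between -1.68 and -1.48 except for sample 1, and its ascorbate values between -4.17 and -1.89.

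The level of each gene was also compared between the replicate numbers. Each number holds 1 water and 1 ascorbate sample, so differences between numbers do not enter the group difference. They do enter the error of the contrast that chose the genes, so this comparison is not fully independent of that choice. Replicate number accounted for 43.1% of the within-group sum of squares of iqd32 and 71.5% of that of AT3G44050, against a median of 63.7% over all tested probes. By limma's F-test with the treatment group in the model, the effect of replicate number had an adjusted p of 0.67 for iqd32 (unadjusted p 0.52) and of 0.32 for AT3G44050 (unadjusted p 0.13). Neither gene passed, where 283 of the 3266 probes (8.67%) did. The mean deviation from the group means was highest in numbers 3 and 4 for both genes, at 0.47 and 0.57 for iqd32 and 0.27 and 0.27 for AT3G44050. It was lowest in number 5 for both, at -0.48 and -0.34.

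Once the group means were taken out, the genes varied in the same direction across samples, although their treatment differences ran opposite ways. Pearson's r of their normalized deviations was 0.66 over the 12 samples, and Spearman's rho was 0.68. Within the groups r was 0.57 in water and 0.77 in ascorbate (n = 6 each). Of the 540 other single-gene probes above the floor on all arrays, 34 followed iqd32 at least as closely as AT3G44050 did, AT3G44050 itself counted. Without ascorbate samples 5 and 4, the samples farthest from the median of iqd32, r was 0.44 over 10 samples. The relation also depended on the scaling: r was 0.52 on log2 of the deposited values and 0.08 with arrays centred on their median, where 232 of the 540 probes reached at least that value. Spearman's rho after centring was 0.36, so the drop was smaller by rank. No p is given, because consecutive replicate numbers may not be independent samples.

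**Figure D4:**
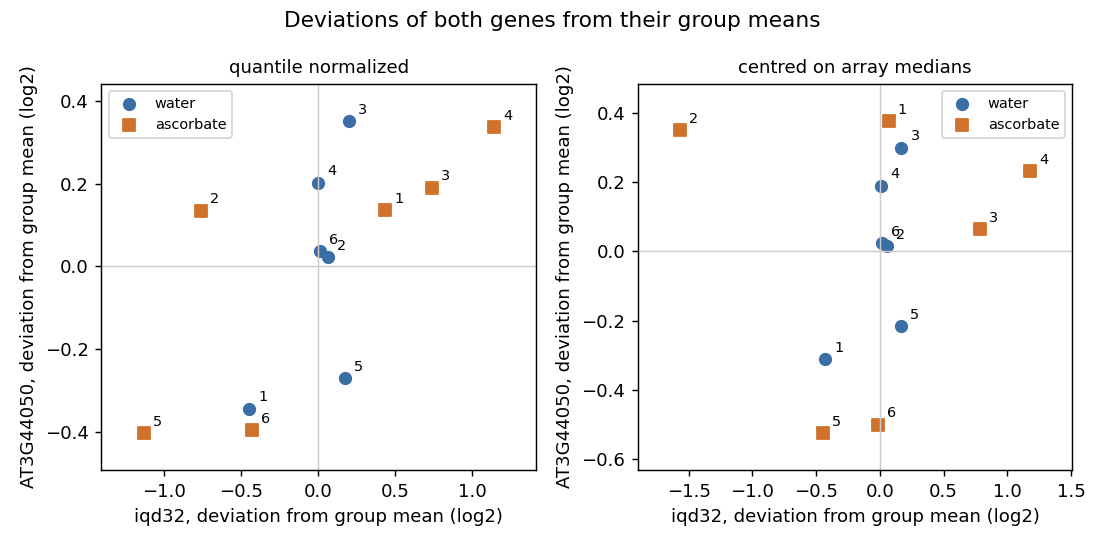
Deviation of AT3G44050 from its group mean against that of iqd32 (log2), after quantile normalization (left) and after centring each array on its median (right), with circles for water, squares for ascorbate and the replicate number beside each point. The points rise together on the left (r = 0.66, rho = 0.68) and less so on the right (r = 0.08, rho = 0.36), where ascorbate sample 2 is low for iqd32 and high for AT3G44050.

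The gene whose profile over the 12 normalized values was most like that of iqd32 was AT5G06790, with r = 0.96 among the 540 single-gene probes set against it (median r 0.11). CHLM, which encodes the magnesium protoporphyrin IX methyltransferase of chlorophyll synthesis, followed with r = 0.92. AT3G06200, AT2G40980 and DAL1 came next, with r of 0.89, 0.88 and 0.87. After centring AT2G40980 had 0.88, but AT3G06200 had 0.49 and DAL1 0.59. An r over the 12 samples includes the group difference that iqd32 was chosen on. On deviations from the group means AT3G06200 had 0.74, AT2G40980 0.69 and DAL1 0.76. On deposited intensities CHLM stood between 0.459 and 0.638 in water and between 0.0767 and 0.416 in ascorbate. Like iqd32, CHLM was lowest on this scale in ascorbate sample 2, read on a dim array, and its smallest ascorbate deficits were in numbers 3 and 4. After normalization CHLM was still lowest in sample 2, at -2.69, but iqd32 was lowest in sample 5, at -4.17. The smallest normalized deficits of iqd32 were in numbers 4 and 1, at -0.21 and -0.47. AT5G06790 stood between 0.604 and 0.690 in water and between 0.0889 and 0.479 in ascorbate, again lowest in sample 2 and highest in samples 3 and 4.

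The likeness of AT5G06790 and CHLM to iqd32 was also seen within groups. On deviations from the group means r with iqd32 was 0.90 for AT5G06790 and 0.82 for CHLM, and it was 0.92 and 0.90 after centring. Next by deviations were AT1G13370, AT2G25640 and AT5G65360, with r of 0.81, 0.81 and 0.79. Of these only AT5G65360 kept a high value after centring, at 0.87, while AT1G13370 and AT2G25640 had 0.37 and 0.29. AT5G65360 encodes the histone H3.1, which is packed into chromatin during DNA replication. Histone H3 genes are near-identical copies, so its probe may also have read others of them. Its deposited intensities in ascorbate samples 1 to 6 were 0.150, 0.0821, 0.624, 0.527, 0.200 and 0.310, against 0.377 to 0.555 in water. Ascorbate sample 3 of this histone gene lay above the water group and sample 4 within it, while the other 4 lay below it.

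For AT3G44050 the closest profiles over the 12 samples were AT3G57120 (r = 0.91), AT5G62840 and AT3G04500 (0.90 each), and AT5G52660 and AT4G30740 (0.89 each), where the median over 540 probes was 0.02. On log2 of the deposited values r was 0.85 to 0.89 for the first 3, but 0.52 for AT5G52660 and 0.56 for AT4G30740. An r over the 12 samples includes the group difference that AT3G44050 was chosen on. On deviations from the group means r was 0.63 for AT3G57120, 0.44 for AT5G62840, 0.37 for AT3G04500, 0.79 for AT5G52660 and 0.69 for AT4G30740. By deviations other genes came first: AT4G07670 and AT4G02040 (r = 0.88 each), XERICO (0.86), and AT3G51320 and AT3G52070 (0.83 each). XERICO encodes a small RING-type protein linked to abscisic acid levels. The difference of XERICO between ascorbate and water was 0.31 ± 0.13 (SE, limma adjusted p 0.13), so it was not called. Its groups overlapped, but within each of the 6 replicate numbers the ascorbate value was the higher one, by 0.16 to 0.43. How many of all probes were higher in every number was not counted. After centring, r of deviations was 0.88 for AT4G07670, 0.86 for XERICO and 0.85 for AT3G51320, but on log2 of the deposited values it was 0.52, 0.47 and 0.37. For AT4G02040 it was 0.69 after centring and 0.63 as deposited, and for AT3G52070 0.83 and 0.27. No gene was among the 5 closest of both iqd32 and AT3G44050. All genes were read on the same 12 arrays and scaled together, so these likenesses are a description of those arrays.

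The other genes of these pathways that the array could show were few. Of 33 genes of the IQD family, 2 had a single-gene probe, iqd32 and IQD22. None of 73 genes named for microtubules, tubulins or kinesins in the reference table had one, AT3G44050 not being named there as a kinesin, nor did any of 87 genes of the actin cytoskeleton or 59 of mitosis and cytokinesis. Of 83 genes of calmodulin and calcium signalling, 2 had a single-gene probe, CML30 and CML41, and of 15 genes of plastid division 1, FZL. Probes assigned to several genes covered 2 more IQD genes, 1 more of calmodulin and calcium signalling and 2 more of plastid division. These were left out. Apart from iqd32, 3 of the 4 genes with a single-gene probe passed the test, all higher in ascorbate. Of all tested probes, 9.74% were called higher and 7.38% lower. With consecutive numbers as a random block within each group, CML30 still passed (adjusted p 0.047), while CML41 and FZL did not (0.075 and 0.090), and with consecutive numbers averaged none of them passed. The median log2 difference was 0.70 over the 4 and 0.60 without FZL, against 0.001 for all tested probes.

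IQD22, the other member of the IQD family with a single-gene probe, did not pass the test. Its deposited intensities in water samples 1 to 6 were 0.127, 0.0735, 0.152, 0.133, 0.266 and 0.242. In ascorbate samples 1 to 6 they were 0.173, 0.118, 0.121, 0.0848, 0.194 and 0.211. It was higher in ascorbate in numbers 1 and 2 and lower in the other 4 as deposited. The normalized difference was 0.58 ± 0.38 (SE, limma adjusted p 0.32), but -0.087 as deposited, and -0.13 without numbers 1 and 2 of both groups, so no direction can be given. The difference between iqd32 and IQD22 itself was not tested.

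CML30 and CML41 encode calmodulin-like proteins, small calcium sensors related to the calmodulin that IQD proteins bind. CML30 had normalized levels of 0.27 (lowest), 0.67 (median) and 1.21 (highest) in water and 1.34, 1.53 and 1.74 in ascorbate, so the groups did not overlap. It rose by 0.81 ± 0.18 log2 units (SE, limma adjusted p 0.011), in all 6 numbers. The call of CML30 was lost without numbers 1 and 2 of both groups (0.74, adjusted p 0.094) and with consecutive numbers averaged (adjusted p 0.25). CML41 stood at -0.47, -0.31 and 0.25 in water and at 0.13, 0.43 and 0.65 in ascorbate, with overlap. It rose by 0.60 ± 0.15 (SE, limma adjusted p 0.019), also in all 6 numbers, least in numbers 1 and 2, at 0.26 and 0.25. The call of CML41 was lost in 7 of 30 alternatives, among them the deposited scale (0.54, adjusted p 0.057), leaving out number 3, 4 or 5 (0.52, 0.50 and 0.61, adjusted p 0.069, 0.067 and 0.056) and leaving out the dim ascorbate arrays 1 and 2 (0.55, adjusted p 0.059). The others were the random block within each group (adjusted p 0.075) and the averages of consecutive numbers (adjusted p 0.30).

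FZL encodes a dynamin-like protein of chloroplast membranes. It was called higher (limma adjusted p 0.0032), but 3 of its water samples, numbers 1, 2 and 6, had values at the floor, and the size of its change is therefore not stated. The call of FZL was lost on the deposited scale, after centring and with a floor at the 5th percentile (adjusted p 0.40, 0.14 and 0.13), with consecutive numbers averaged (0.17) and with these as a random block within each group (0.090).

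Among the 20 genes nearest to iqd32 on chromosome 1, 10 on either side, none had a single-gene probe. Among the 20 nearest to AT3G44050 on chromosome 3, 1 did. This was AT3G44020, 5 genes away. Its deposited intensities ran from 0.600 to 0.815 in water and from 1.05 to 1.72 in ascorbate. All ascorbate values exceeded all water values, as for AT3G44050. The same held on the normalized scale, where 9.64% of all tested probes had groups that did not overlap. AT3G44020 rose by 1.13 ± 0.10 log2 units (SE, limma adjusted p 8.0e-05), a size close to the 1.09 of AT3G44050. The call of AT3G44020 was kept in 29 of 30 alternatives and lost with consecutive numbers averaged (adjusted p 0.16). Across the 12 samples r of these neighbours was 0.82, the 17th highest of 540. On deviations from the group means it was -0.47, and 0.16 after centring. The difference of AT3G44050 was largest in number 1, at 1.57, where that of AT3G44020 was smallest, at 0.78.

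**Figure D5:**
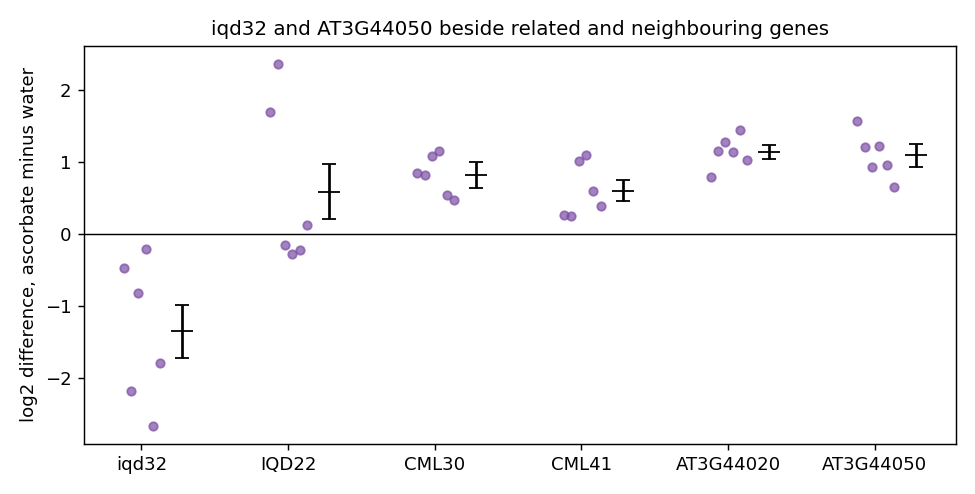
Normalized log2 difference of ascorbate minus water for iqd32, IQD22, CML30, CML41, AT3G44020 and AT3G44050, with points for replicate numbers 1 to 6 from left to right and a bar for the fitted difference ± SE. All 6 points lie below 0 for iqd32 and above 0 for CML30, CML41, AT3G44020 and AT3G44050, while IQD22 is high in numbers 1 and 2 (1.69 and 2.35) and between -0.28 and 0.12 in the others. FZL is not drawn because 3 of its values were at the floor.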

How the data were processed

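Total RNA of 6 water and 6 ascorbate samples was read on 12 one-channel arrays. The authors deposited linear intensities for 3439 probes; what scanner, background correction or scaling lay behind them is not given in the sources used here. Deposited values were never negative, 11.5% to 14.2% per array were 0, and the top of the scale was 100, so units are relative. The number of arrays limits the precision.

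Each array had a floor at percentile 1 of its positive values (0.00752 to 0.0545), lower values were set to the floor, log2 was taken and arrays were quantile normalized. Leaving out 173 probes listed at 0 throughout left 3266. Groups were compared in limma 3.58.1 (lmFit and eBayes, R 4.3.3), two-sided, with Benjamini-Hochberg adjustment over all tested probes and a threshold of 0.05. Replicate number was tested with limma's F-test, treatment group in the model. Scripts were tested on simulated data.

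Platform annotation gave 1 gene for 692 probes, several for 870 and none for 1877, and 690 of the 692 had a locus in the RefSeq table of TAIR10.1, used for names and gene order only. Gene lists came from family membership and the names in that table. Named genes were the members, the 5 most alike by each measure, and every list member or neighbour within 10 genes with a single-gene probe. Members, lists and tests were chosen with earlier results of these data known.

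Samples of the same number deviated from their group means together, with r across all tested probes of 0.35, 0.36, 0.56, 0.56, 0.53 and 0.53 for numbers 1 to 6, all over the limit of 0.1. The highest r with another number was 0.40 for number 5 and 0.39 for number 6, also over this limit. In the other numbers it was at most 0.070. For numbers 5 and 6, passing the limit therefore does not show pairing by single number, although the same-number r was higher. The label numbers were taken to pair the samples for the differences within a number and for the replicate block. The main comparison of the groups, with its errors and adjusted p, was fitted without that block.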

Additional observations from a re-analysis of the deposited data

Results flagged for a closer look

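Of 50 groups of 6 normalized values screened (25 genes, water and ascorbate), 2 held a sample far from the other 5, where chance flags about 2.5. The first was water sample 1 of iqd32, whose log2 intensity of -2.13 lay under the -1.68 to -1.48 of the other water samples. For AT3G04500, a gene with a profile like that of AT3G44050, water sample 6 was at 0.076 against -0.44 to -0.33. Without water sample 1, the difference of iqd32 was -1.46, against -1.36 with it.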

How the results depend on the processing

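Both genes kept their direction in all 30 alternatives, which is no test, because they were chosen for that direction on these same arrays. Settings that changed only the blocks, the averaging or the probes left out gave the same differences by construction. The difference of iqd32 ran from -1.83 (as deposited) to -0.55 (25th percentile of each array added before log2), and from -1.55 to -1.14 when samples or numbers were left out. That of AT3G44050 ran from 0.75 (25th percentile offset) to 1.19, and from 0.89 to 1.19 when samples or numbers were left out. By its construction an offset shrinks differences, those of dim probes most. With the replicate block, 796 probes were called against 559, and the differences stayed at -1.36 and 1.09, as the design is balanced. Averaging consecutive numbers called 1 probe, a random block for consecutive numbers over both groups called 905, and one within each group, added after the data were seen, 148; the cause was not tested, apart from fewer samples in the average. Leaving out samples or numbers gave 315 to 579 calls. Of the calls, 318 were higher and 241 lower, against 91 and 328 as deposited and 360 and 135 after centring. For replicate number, 118 to 201 probes were called when a number was left out, with fewer samples, and 189 to 416 in the other settings. The adjusted p of replicate number stayed between 0.53 and 0.75 for iqd32 and between 0.19 and 0.69 for AT3G44050. The correlation of the genes within groups was 0.082 after centring and 0.54 to 0.80 with samples left out; the cause was not tested. IQD22 reversed to -0.087 as deposited and to -0.13 without numbers 1 and 2. Dim values, such as those of iqd32 in ascorbate, limit the size of its change.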
